A study of Mus musculus with 8 samples.

Results

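The last part of cholesterol synthesis was followed here through 8 enzyme genes that act on lanosterol and its products, taken by symbol from 24346 genes: Cyp51, Tm7sf2, Msmo1, Nsdhl, Hsd17b7, Ebp, Sc5d and Dhcr7, in the order of their steps. RNA was sequenced from immature oligodendrocytes (iOLs) grown from mouse oligodendrocyte precursor cells (OPCs), with 4 Med23+/+ and 4 Med23-/- libraries. Med23 is a subunit of Mediator, the complex that links transcription factors to RNA polymerase II. Both genotypes came from brains of mice at postnatal day 7 whose Med23 alleles were floxed (Med23 fl/fl). The Med23-/- cells also carried Olig1-Cre, which drives recombination in the oligodendrocyte lineage, and the Med23+/+ cells did not. OPCs of both genotypes were selected on an antibody against CD140a (the product of Pdgfra), grown under 10% CO2 with NT-3 (1 ng/mL) and PDGF-AA (10 ng/mL), and differentiated for 1 day with 15 nM T3, the active thyroid hormone, and 10 ng/mL CNTF. The number of animals behind each culture is not given in the sources used here, and no label says that the libraries of a genotype came from separate cultures. Y-linked levels, given below, set Med23+/+ replicate 1 and Med23-/- replicate 2 apart. Each therefore did not come from the same cells as the rest of its genotype. The p-values measure the spread between these libraries, which may be technical in part.

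Lanosterol is the first sterol ring structure of the pathway and carries extra methyl groups that cholesterol lacks. The later enzymes remove the methyl group at C14, reduce the double bond this leaves, strip the pair of methyl groups at C4 in repeated rounds, and then move and reduce the remaining double bonds. Myelin is rich in cholesterol, and oligodendrocytes make much of it themselves because little crosses from the blood into the brain. Blocking CYP51, the C14 reductases or EBP with small molecules, so that the sterols upstream of the block accumulate, is known to raise the formation of oligodendrocytes from OPCs in culture.

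The bases just upstream of the start sites show what the genes of these enzymes share in sequence. Promoters were read from the RefSeq table of build GRCm38.p6, in which 8 of the 8 genes were matched with 10 start sites. The 250 bases before each RefSeq start were searched on both strands. By the coordinates of GENCODE vM21, the windows of Lbr and Tm7sf2 and the later windows of Dhcr7 lie inside the gene. Those of Cyp51, Msmo1 and Hsd17b7, and the first window of Dhcr7, lie partly inside the gene. The promoters of the first enzyme, Cyp51, and of the pair with the largest differences between genotypes, Nsdhl and Hsd17b7, are shown with that of Lbr, the gene of the second C14 reductase. They are written 5′ to 3′ along the strand of the gene, with capitals for GGGCGG (the GC box), CCAAT and CACGTG (the E-box) or their reverse complements. The windows are chr5:4104698-4104947 on the minus strand for Cyp51, chrX:72918271-72918520 on the plus strand for Nsdhl, chr1:169969206-169969455 on the minus strand for Hsd17b7 and chr1:181842402-181842651 on the minus strand for Lbr.
Cyp51: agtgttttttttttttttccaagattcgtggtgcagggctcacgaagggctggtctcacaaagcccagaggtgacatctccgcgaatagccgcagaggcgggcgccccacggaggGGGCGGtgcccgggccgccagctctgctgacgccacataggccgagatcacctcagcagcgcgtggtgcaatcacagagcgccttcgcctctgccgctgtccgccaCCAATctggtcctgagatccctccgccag
Nsdhl: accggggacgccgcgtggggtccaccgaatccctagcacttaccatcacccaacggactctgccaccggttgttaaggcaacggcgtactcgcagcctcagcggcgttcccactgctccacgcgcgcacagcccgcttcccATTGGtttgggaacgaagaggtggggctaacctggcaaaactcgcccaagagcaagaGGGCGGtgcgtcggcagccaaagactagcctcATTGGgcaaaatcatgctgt
Hsd17b7: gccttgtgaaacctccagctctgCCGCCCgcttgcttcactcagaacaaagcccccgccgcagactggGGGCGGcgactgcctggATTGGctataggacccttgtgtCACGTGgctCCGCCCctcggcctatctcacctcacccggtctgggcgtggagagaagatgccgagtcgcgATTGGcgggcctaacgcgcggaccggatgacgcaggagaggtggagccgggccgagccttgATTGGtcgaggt
Lbr: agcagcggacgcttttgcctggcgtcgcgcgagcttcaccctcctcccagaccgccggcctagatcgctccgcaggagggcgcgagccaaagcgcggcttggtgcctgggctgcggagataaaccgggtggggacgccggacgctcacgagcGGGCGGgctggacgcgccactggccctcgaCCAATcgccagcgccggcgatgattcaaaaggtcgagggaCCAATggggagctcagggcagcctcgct
In these windows no motif overlapped another. The Cyp51 window held 1 GC box, 135 bases before the start, and 1 CCAAT, 29 bases before it. In the Nsdhl window the GC box lay 52 bases before the start, between CCAAT matches 109 and 20 bases before it. Hsd17b7 held 3 GC boxes, 3 CCAAT matches and 1 E-box, with the nearest CCAAT 12 bases from the start. Lbr held 1 GC box and 2 CCAAT matches.

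A GC box, the letters bound by Sp1 and its relatives, was found before a RefSeq start of 8 of the 8 enzyme genes. The share was 32.7% of all 32851 promoters in the table and 58.5% of the 11940 promoters of genes tested here. CCAAT, the letters bound by NF-Y, was likewise found at 8 of the 8, against 33.8% and 35.6%. Both motifs stood together at 8 of the 8 genes, against 3618 of all promoters and 20.8% of those of tested genes. These counts take a gene as holding a motif if any of its start sites does, and the shares are per promoter. Dhcr7 held CCAAT, and so both motifs together, only in its window from 143829964 to 143830213, which lies inside the gene. Counted per promoter, 9 of the 10 held a GC box, 8 held CCAAT and 8 held both. The E-box was found at Hsd17b7, Sc5d and Dhcr7, which is 3 of 8 genes against 6.0% and 8.3%. That of Dhcr7 lay in the window from 143823149 to 143823398, also inside the gene. Neither TCACNCCAC, a core spelling of the sterol response element bound by SREBP, nor TGACGT, part of the cyclic AMP response element, was found in the windows of the 8 genes. Only these exact letters were searched. Elements with other spellings or outside the windows would be missed, so the absence does not show that the genes lack such elements. Those letters occurred in 1.1% and 6.5% of all promoters. Among the genes of the steps up to lanosterol, 7 of 11 were matched, and 6 held a GC box, 6 held CCAAT and 5 held both. A match of letters describes the sequence and does not show that a factor binds there.

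Levels were compared as FPKM, a count of fragments scaled to the length of the transcript and the size of the library, and differences as Med23-/- minus Med23+/+ on the log2(FPKM + 1) scale with limma over the 12328 genes whose mean reached 1 FPKM. A gene is called lower or higher, or said to pass, at an adjusted p under 0.05, and past both limits where its fold change was also above 2. Med23 itself stood at 12.7, 12.2, 12.6 and 12.6 FPKM in Med23+/+ replicates 1 to 4 and at 8.40, 7.93, 8.49 and 8.21 FPKM in Med23-/-, a difference of -0.55 (SE 0.07, adjusted p = 0.000353), so transcript of the gene was still counted in the Med23-/- libraries. The authors checked the deletion by western blot of the MED23 protein in primary OPCs, and levels of RNA do not measure that protein. The depth of the libraries is unknown, and the worth of 1 read, relative to Med23+/+ replicate 1, ran from 0.771 to 1.017. The first principal component (42.4% of the variance) separated the genotypes. The second (15.6%) separated replicates 1 and 2 from replicates 3 and 4 in both, and no label marks that division. A low level of Y-linked genes set Med23+/+ replicate 1 and Med23-/- replicate 2 apart, with a mean log2(FPKM + 1) of 0.08 and 0.02 against 3.91 to 4.42 in the other 6 libraries.

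All 5 genes listed as oligodendrocyte lineage markers were expressed, with Olig1 highest and sums of 1139 to 1541 FPKM in Med23+/+ and 1369 to 1838 FPKM in Med23-/-. Of these, Pdgfra and Cspg4, which mark progenitors, were higher past both limits in Med23-/- (log2 differences of 1.47 and 1.39), and Sox10 was lower (-0.49, adjusted p = 0.0203 by limma). The 10 oligodendrocyte markers, led by Gpr17, were lower past both limits in Med23-/- iOLs, and their summed level was 2105 to 2375 FPKM in Med23+/+ and 535 to 1109 FPKM in Med23-/-. Of 8 neuron markers, 7 were higher, with sums of 47.6 to 76.3 and 96.9 to 198 FPKM, and Snap25 had the highest mean. Of 8 astrocyte markers, 7 were tested, 2 were lower and 1 was higher, with sums of 107 to 154 and 88.6 to 142 FPKM, led by Aldoc. Fibroblast markers summed to 0.797 to 9.32 and 2.68 to 16.0 FPKM, with 0 of the 2 tested called by limma (0 also unadjusted), and the sums of the microglial and of the endothelial and mural markers were at most 1.89 FPKM in each library. No listed marker was at 0 in all 8 libraries. The part of these markers in the differences below was not tested, and in bulk RNA fewer cells of a type and less RNA per cell cannot be told apart.

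Of the 8 post-lanosterol genes, 7 were lower in Med23-/- iOLs by adjusted p (limma, Benjamini-Hochberg over 12328 genes) and 0 were higher (7 and 0 also at an unadjusted p under 0.05), where 14.1% of all tested genes were lower and 15.9% were higher. The differences ran from -0.71 for Hsd17b7 to -0.29 for Ebp, the gene that did not pass, with a median of -0.46 beside -0.01 over all genes tested. As shares of the Med23+/+ mean, levels were lower by 19.1% to 40.3%, so 0 of the 8 passed the second limit of a fold change above 2, which 1.75% of all genes passed in the lower direction together with adjusted p. In 5 genes, Cyp51, Msmo1, Nsdhl, Hsd17b7 and Dhcr7, every Med23-/- library lay below every Med23+/+ library, as in 15.3% of all genes tested. The summed level of the 8 was 546 to 659 FPKM in Med23+/+ and 415 to 433 FPKM in Med23-/-.

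**Figure D1:**
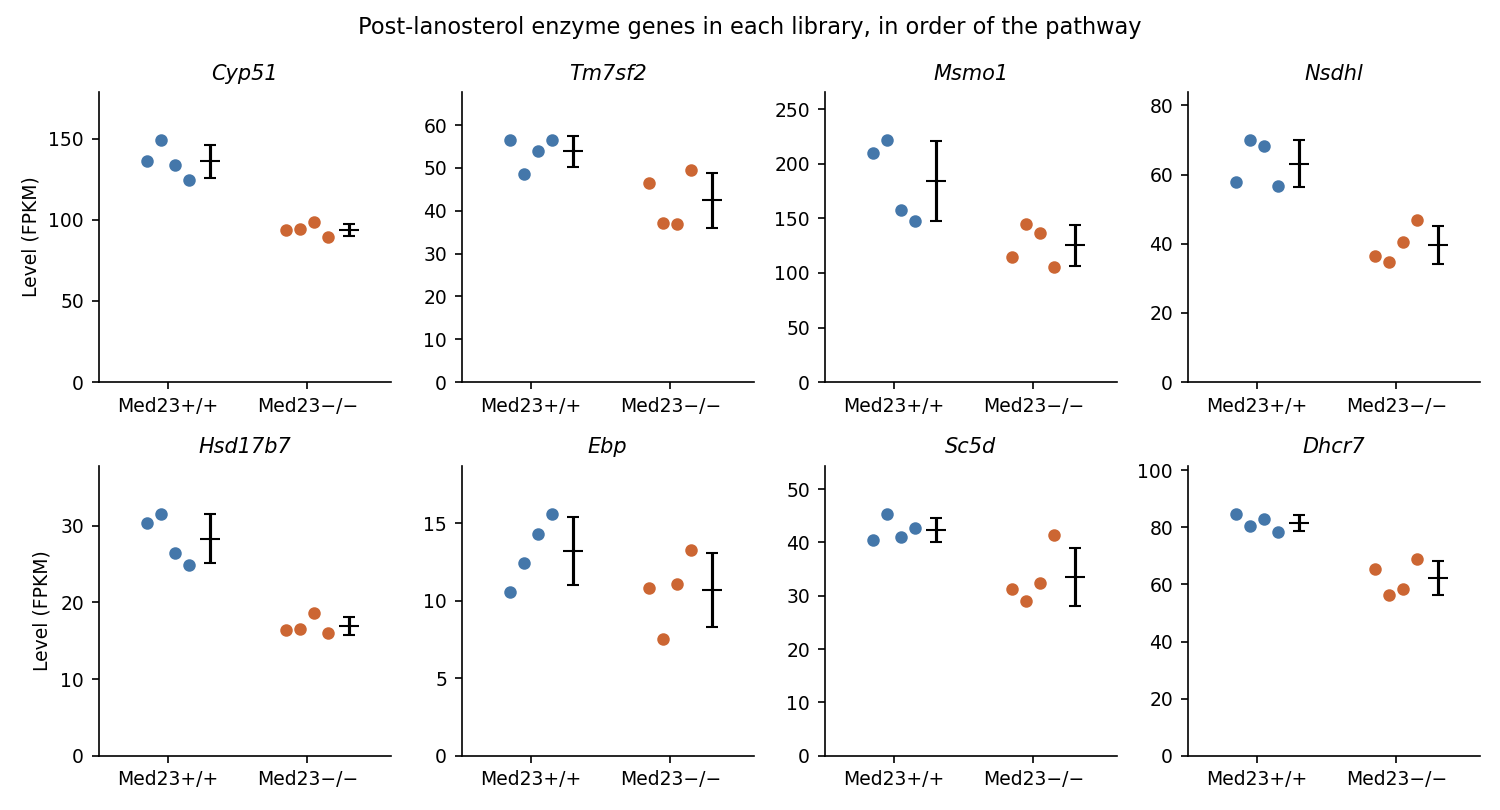
Level in FPKM (vertical axes, each from 0) of the 8 enzyme genes in each of the 4 Med23+/+ (blue) and 4 Med23-/- (orange) libraries, in replicate order from left to right, with the mean and SD in black. The genotypes do not overlap for Cyp51, Msmo1, Nsdhl, Hsd17b7 and Dhcr7, and they overlap for Tm7sf2, Ebp and Sc5d.

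Cyp51 encodes lanosterol 14-alpha-demethylase, the cytochrome P450 that starts this stretch of the pathway (GENCODE vM21 on mm10, chromosome 5, 4081145 to 4104746, minus strand). Its level was 136, 149, 134 and 124 FPKM in Med23+/+ replicates 1 to 4 and 93.6, 94.2, 98.4 and 89.4 FPKM in Med23-/-. The genotypes were apart by more than the spread within either, and the Med23-/- libraries lay close together. The means were 136 ± 10.1 and 93.9 ± 3.67 FPKM (SD, n = 4), a difference of -0.53 (SE 0.08, 95% interval -0.70 to -0.35, adjusted p = 0.000968 by limma; exact permutation p = 0.0286, the smallest that 4 against 4 allows). Of its exonic bases, 4.22% overlap Akap9 on the other strand.

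The double bond left at C14 is reduced by either of a pair of enzymes, one encoded by Tm7sf2 and the other by Lbr. Tm7sf2 (chromosome 19, 6062821 to 6068373, minus strand) stood at 56.4, 48.6, 53.9 and 56.4 FPKM in Med23+/+ and at 46.4, 37.2, 36.9 and 49.5 FPKM in Med23-/-. Replicate 4 of Med23-/- lay above replicate 2 of Med23+/+, so the ranges overlapped. The means were 53.8 ± 3.67 and 42.5 ± 6.42 FPKM (SD, n = 4), and the difference of -0.34 (SE 0.11, 95% interval -0.59 to -0.10) passed limma (adjusted p = 0.0388) while the exact permutation test gave p = 0.0571. The call was lost when Med23+/+ replicate 1, 3 or 4 was left out (adjusted p = 0.0876, 0.0804 and 0.0961) or Med23-/- replicate 2 or 3 (0.0965 and 0.0918). Tm7sf2 shares 24.05% of its exonic bases with Vps51 on the same strand, a gene whose own difference was -0.12 (adjusted p = 0.471), and reads there cannot be assigned to one of them with certainty.

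Lbr, the lamin B receptor of the inner nuclear membrane, also has the C14 reductase activity, and it moved the other way. Its level (chromosome 1, 181815335 to 181843046, minus strand) was 18.9, 21.5, 19.0 and 19.2 FPKM in Med23+/+ and 31.4, 26.3, 31.0 and 32.7 FPKM in Med23-/-. Every Med23-/- library was above every Med23+/+ library. The means were 19.6 ± 1.26 and 30.4 ± 2.79 FPKM (SD, n = 4), a rise of 0.60 (SE 0.09, 95% interval 0.41 to 0.79, adjusted p = 0.000868 by limma; exact permutation p = 0.0286). Within a library, Lbr was 0.334 to 0.442 of the level of Tm7sf2 in Med23+/+ and 0.661 to 0.840 of it in Med23-/-. That ratio was formed after both genes' values were seen, and it is given without a test.

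**Figure D2:**
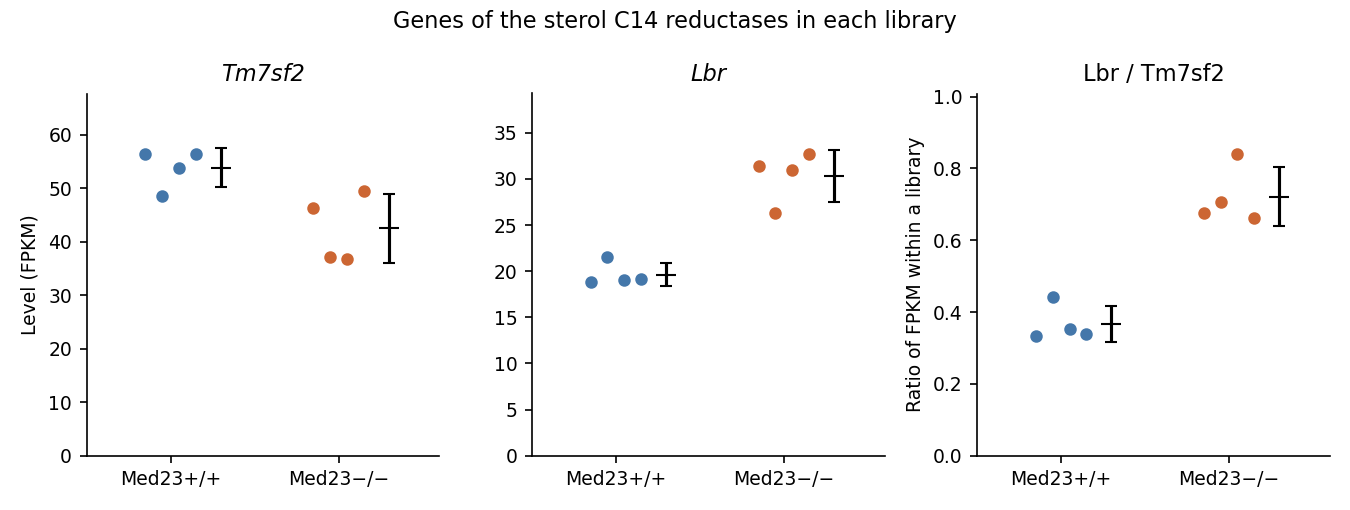
Levels in FPKM of Tm7sf2 (left) and Lbr (middle), the genes of the sterol C14 reductases, and the ratio of Lbr to Tm7sf2 within each library (right), for 4 Med23+/+ (blue) and 4 Med23-/- (orange) libraries with mean and SD in black. Tm7sf2 overlaps between the genotypes, Lbr is higher in each Med23-/- library, and the ratio is 0.334 to 0.442 in Med23+/+ and 0.661 to 0.840 in Med23-/-.

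The C4 methyl groups are removed by MSMO1, NSDHL and HSD17B7 working in turn, and the genes of the last 2 had the largest differences of the 8. Msmo1 encodes the methylsterol monooxygenase that oxidises the methyl group (chromosome 8, 64718139 to 64733792, minus strand). It was at 209, 221, 158 and 147 FPKM in Med23+/+ and at 114, 145, 137 and 105 FPKM in Med23-/-, and the lowest Med23+/+ library was just above the highest Med23-/- library. The means were 184 ± 36.8 and 125 ± 18.7 FPKM (SD, n = 4), and the difference was -0.54 (SE 0.16, 95% interval -0.89 to -0.19, adjusted p = 0.0257 by limma; exact permutation p = 0.0286). This gene varied most between libraries of one genotype in FPKM. Its call was lost without Med23+/+ replicate 1 or 2 (adjusted p = 0.0664 and 0.0657) and without Med23-/- replicate 1 or 4 (0.0684 and 0.0560).

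Nsdhl encodes the dehydrogenase that releases the oxidised methyl group as CO2, and lies on the X chromosome (72918557 to 72958514, plus strand). Levels of 57.8, 69.9, 68.4 and 56.7 FPKM in Med23+/+ stood against 36.3, 34.8, 40.6 and 46.8 FPKM in Med23-/-. The ranges did not meet, and Med23-/- replicate 4 came nearest to the Med23+/+ libraries. The means were 63.2 ± 6.91 and 39.7 ± 5.37 FPKM (SD, n = 4), a difference of -0.66 (SE 0.11, 95% interval -0.91 to -0.41, adjusted p = 0.00206 by limma; exact permutation p = 0.0286). With the level of the Y-linked genes as a covariate, the difference was -0.65 (adjusted p = 0.00225).

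Hsd17b7 encodes the 3-ketosteroid reductase that closes each round of C4 demethylation (chromosome 1, 169949535 to 169969241, minus strand). It stood at 30.4, 31.6, 26.5 and 24.9 FPKM in Med23+/+ and at 16.4, 16.6, 18.6 and 16.0 FPKM in Med23-/-. The Med23-/- libraries were tightly grouped and well below those of Med23+/+. The means were 28.3 ± 3.17 and 16.9 ± 1.15 FPKM (SD, n = 4), a level lower by 40.3% and a difference of -0.71 (SE 0.09, 95% interval -0.92 to -0.50, adjusted p = 0.000534 by limma; exact permutation p = 0.0286). Erg28, listed under its older symbol 0610007P14Rik, encodes the protein that holds the C4 demethylation enzymes together at the endoplasmic reticulum. It was at 67.8, 78.5, 87.0 and 78.8 FPKM in Med23+/+ and at 54.1, 53.1, 63.2 and 72.1 FPKM in Med23-/-, with 1 Med23-/- library inside the Med23+/+ range. Its difference was -0.36 (SE 0.12, adjusted p = 0.0379 by limma; exact permutation p = 0.0571), and the call was lost in 6 of the 8 fits that left out 1 library, at adjusted p from 0.0541 to 0.101: every one except those without Med23+/+ replicate 1 and without Med23-/- replicate 4.

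Ebp encodes the sterol isomerase that shifts a double bond from C8 to C7, and is also on the X chromosome (8185329 to 8193512, minus strand). It had the lowest level of the 8 genes, at 10.5, 12.4, 14.3 and 15.6 FPKM in Med23+/+ and 10.9, 7.54, 11.1 and 13.3 FPKM in Med23-/-. The libraries of the genotypes were mixed, and 1 of the 4 Med23-/- libraries lay below the lowest Med23+/+ library. The means were 13.2 ± 2.21 and 10.7 ± 2.37 FPKM (SD, n = 4), and the difference of -0.29 (SE 0.16, 95% interval -0.66 to 0.07) did not pass (adjusted p = 0.212 by limma; exact permutation p = 0.2). The interval leaves room for a difference as large as that of Cyp51 as well as for none. Ebpl, a relative of Ebp not known to act as the isomerase, went from 5.24 ± 0.365 to 3.24 ± 0.306 FPKM (SD, n = 4), a fall with no overlap between the genotypes (log2 difference -0.56, SE 0.09, adjusted p = 0.00188 by limma).

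Sc5d, which encodes lathosterol oxidase, and Dhcr7, which encodes 7-dehydrocholesterol reductase, act on the double bonds at C5 and C7. Sc5d (chromosome 9, 42251595 to 42264256, minus strand) was at 40.4, 45.4, 41.1 and 42.8 FPKM in Med23+/+ and at 31.4, 29.0, 32.4 and 41.4 FPKM in Med23-/-. The first 3 Med23-/- libraries lay below the Med23+/+ range and replicate 4 lay inside it. The means were 42.4 ± 2.22 and 33.5 ± 5.41 FPKM (SD, n = 4), and the difference was -0.34 (SE 0.11, 95% interval -0.58 to -0.10, adjusted p = 0.0369 by limma; exact permutation p = 0.0857). Without Med23-/- replicate 4 the difference was -0.44 (adjusted p = 0.00364). Leaving out any 1 of the other 7 libraries ended the call, with adjusted p from 0.0548 to 0.0924.

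Dhcr7 (chromosome 7, 143823145 to 143848410, plus strand) was at 84.7, 80.4, 83.0 and 78.3 FPKM in Med23+/+ and at 65.6, 56.4, 58.4 and 69.1 FPKM in Med23-/-. The Med23+/+ libraries varied little and none of the Med23-/- libraries reached them. The means were 81.6 ± 2.82 and 62.4 ± 5.97 FPKM (SD, n = 4), a difference of -0.39 (SE 0.08, 95% interval -0.57 to -0.20, adjusted p = 0.00668 by limma; exact permutation p = 0.0286).

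**Figure D3:**
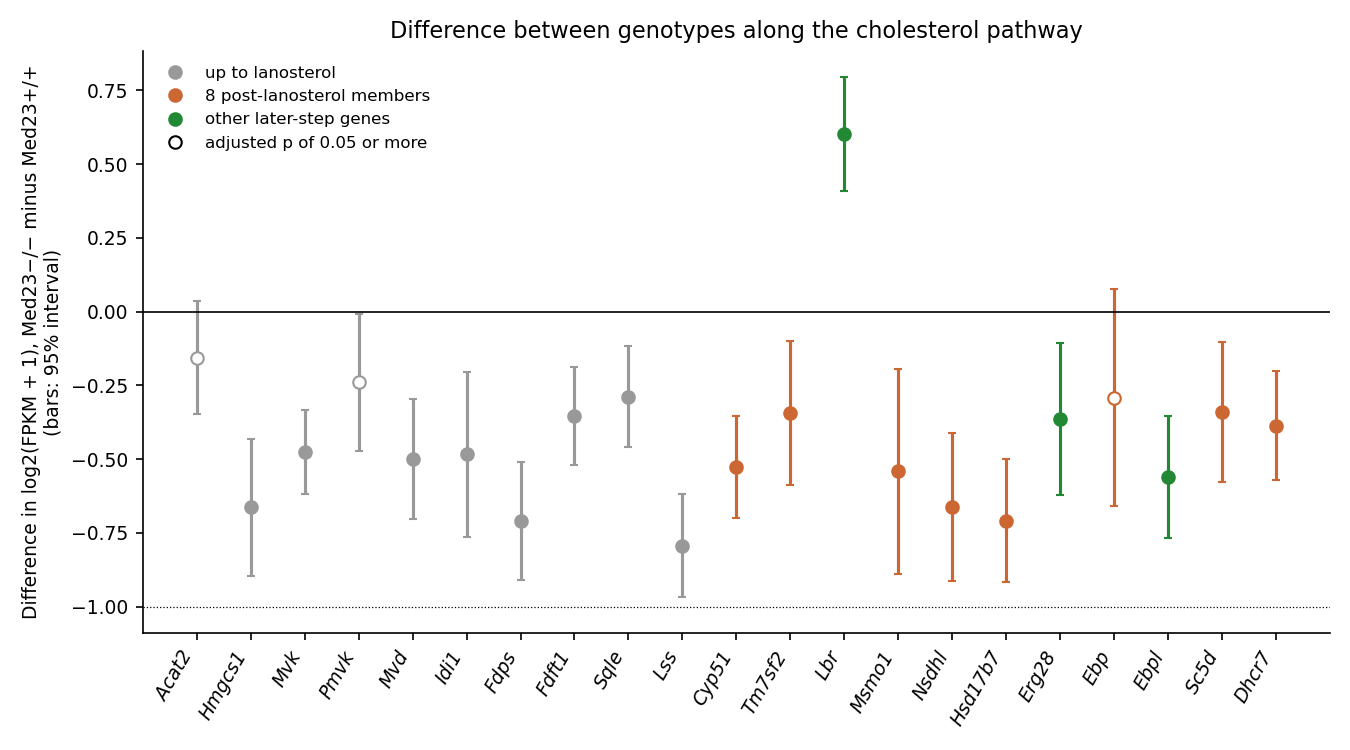
Difference in log2(FPKM + 1), Med23-/- minus Med23+/+ (vertical axis), with its 95% interval for genes of cholesterol synthesis in pathway order: grey for 10 genes up to lanosterol, orange for the 8 post-lanosterol genes, green for the other later-step genes. Open circles did not pass adjusted p, and the dotted line marks a fold change of 2, which no difference shown reaches. Lbr at 0.60 is the one gene shown above 0, and Lss at -0.79 is the lowest.

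The order of the levels was Msmo1, Cyp51, Dhcr7, Nsdhl, Tm7sf2, Sc5d, Hsd17b7 and Ebp in Med23+/+, from 184 down to 13.2 FPKM. Each gene was above the next in 4 of 4 libraries (exact permutation p = 0.125 each, the smallest that 4 pairs allow), and the ranges overlapped for Msmo1 and Cyp51 alone. In Med23-/- the order was the same but for Tm7sf2 and Nsdhl, which changed places at 42.5 and 39.7 FPKM. Tm7sf2 was the higher of the 2 in 3 of 4 Med23-/- libraries (exact permutation p = 0.5) and their ranges overlapped, as did those of Nsdhl and Sc5d.

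Whether the genes differed from one another in their change was tested on the log2 ratio of 2 genes within a library, for 28 pairs. None passed after adjustment, and 3 pairs reached p = 0.0286, the smallest possible, with an adjusted p of 0.267 (exact permutation tests). With that smallest p, a pair could pass only if most of the 28 reached it. The lack of a pass therefore does not show that the genes changed alike. In those 3 pairs the ratio did not overlap between the genotypes. The log2 ratio of Hsd17b7 to Sc5d was lower in Med23-/- by a difference of -0.37 (-0.43 to -0.24 when 1 library was left out). The ratio of Nsdhl to Sc5d differed by -0.32 (-0.38 to -0.27), and that of Cyp51 to Hsd17b7 by 0.18 (0.15 to 0.20).

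The libraries of Med23-/- did not rank alike for the enzyme genes and for oligodendrocyte markers. Med23-/- replicate 4 had the highest level of 5 of the 8 enzyme genes within its genotype, but the lowest level of the other 3. It had the lowest level of 7 of the 10 oligodendrocyte markers. Med23-/- replicate 2 had the lowest level of 4 of the 8 enzyme genes and the highest of 1, and the highest level of 6 of the 10 markers. The summed level of the 8 enzyme genes differed little, at 415, 421, 433 and 431 FPKM in Med23-/- replicates 1 to 4. In Med23+/+, replicate 4 was lowest for 5 of the 8 enzyme genes and also for 6 of the 10 markers, while replicate 2 was highest for 5 of the 8 and replicate 3 for 7 of the 10. For the 11 genes up to lanosterol, Med23-/- replicate 4 was instead the lowest library for 6. These ranks are given as a description over 4 libraries of a genotype.

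Computed within replicates 1 and 2 and within replicates 3 and 4, the difference kept its sign for the 8 genes and was larger in replicates 1 and 2 for 7 of them. Msmo1 differed by -0.74 in the former and -0.34 in the latter, Nsdhl by -0.82 and -0.50, and Hsd17b7 by -0.87 and -0.54. For Sc5d the values were -0.49 and -0.19, and for Cyp51 they were -0.60 and -0.46. Dhcr7 gave -0.43 and -0.34, and Ebp -0.31 and -0.28. Tm7sf2 was the exception, with -0.33 and -0.36, and Lbr gave 0.49 and 0.71. With 2 libraries a genotype in each, these values carry no test, and whether they differ between the pairs of replicates was not tested.

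**Figure D4:**
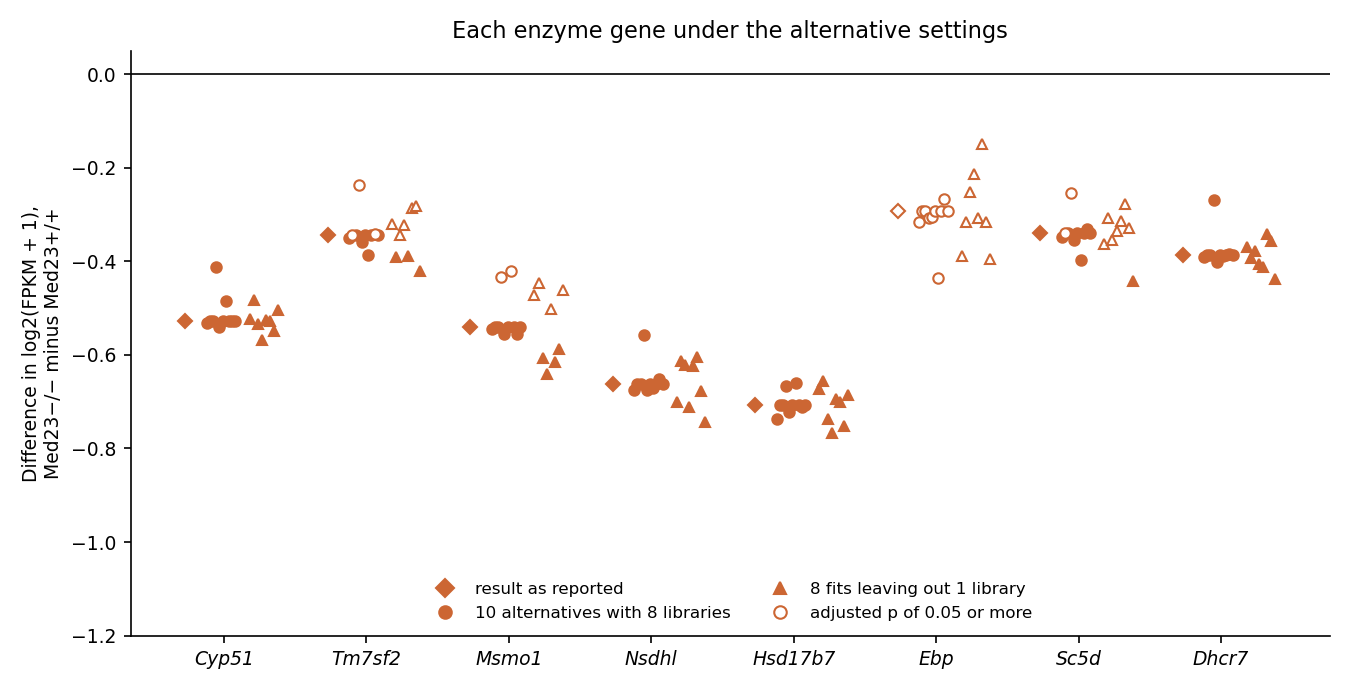
Difference in log2(FPKM + 1), Med23-/- minus Med23+/+ (vertical axis), of each enzyme gene as reported (diamond), under 10 alternatives with 8 libraries (circles) and in 8 fits that leave out 1 library (triangles), with open symbols where adjusted p did not pass. Cyp51, Nsdhl, Hsd17b7 and Dhcr7 are filled throughout, Ebp is open throughout, and Tm7sf2, Msmo1 and Sc5d are mixed.

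Cyp51, Msmo1 and Sc5d need electrons that come through cytochrome P450 reductase or cytochrome b5. The genes of this supply were listed as electron donors together with Pgrmc1 and Pgrmc2, which do not encode that reductase or cytochrome b5. Most genes on the list did not pass the test. Of 7 tested with limma, 0 were lower (2, Por and Cyb5b, at an unadjusted p under 0.05) and 1, Pgrmc1, was higher. Pgrmc1, a heme-binding membrane protein that associates with cytochromes P450 including CYP51, rose from 44.2 ± 3.37 to 63.2 ± 2.93 FPKM (SD, n = 4), a difference of 0.51 (SE 0.08, adjusted p = 0.0012 by limma) with no overlap. Por, the P450 reductase, stood at 37.9 ± 2.91 and 32.2 ± 1.37 FPKM (SD, n = 4; log2 difference -0.23, adjusted p = 0.0524), and Cyb5b, a cytochrome b5, differed by -0.37 (adjusted p = 0.0810). Without Med23+/+ replicate 2 the difference of Por passed (-0.28, adjusted p = 0.0215), and without Med23+/+ replicate 1 that of Cyb5b did (-0.47, adjusted p = 0.0327). Cyb5a, Cyb5r1, Cyb5r3 and Pgrmc2 were between -0.17 and 0.05 (adjusted p from 0.2 to 0.769), a sign that turned under other settings for Cyb5a and Cyb5r1.

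In the steps that lead up to lanosterol, 9 of 11 genes were lower and 0 were higher, with a median of -0.48. Acat2, the thiolase at the entry, had the smallest difference (-0.16, adjusted p = 0.201). Lss, which makes the lanosterol on which Cyp51 acts, differed by -0.79 (adjusted p = 0.000124).

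The genes that regulate the pathway through SREBP, the transcription factor activated when sterols are low, or that bring sterol into the cell, were called in part. Of 11 listed, 10 were tested, 5 were lower and 0 were higher, with a median of -0.21. Srebf2, a gene of the factor itself, had the highest difference (0.06, adjusted p = 0.693). Srebf1, which also encodes a form of SREBP, differed by -0.18 (adjusted p = 0.175 by limma). Leaving out any 1 of the 8 libraries brought the count of lower genes to 2 or 3. Of 7 genes of the LXR response and sterol efflux, 6 were tested and 0 were called by limma (0 also at an unadjusted p under 0.05), from Apoe at -0.14 (adjusted p = 0.797) to Abcg1 at 0.31 (adjusted p = 0.181). Of 6 genes that turn cholesterol into esters or oxysterols, 3 were tested. Soat1, which esterifies cholesterol, was the 1 that fell (-0.60, adjusted p = 0.00232), and Cyp7b1, an oxysterol hydroxylase, differed by 0.55 (adjusted p = 0.102; 0.72 and 0.0403 without Med23+/+ replicate 3). Fatty acid synthesis, which also feeds myelin lipid, had 9 of 12 genes lower and 0 higher, with a median of -0.47, from Scd1, a desaturase (-0.98, adjusted p = 0.00128), to Me1, malic enzyme (-0.11, adjusted p = 0.402).

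The mean profile of the 8 enzyme genes over the 8 libraries, as log2(FPKM + 1) minus each gene's own mean, was 0.23, 0.31, 0.23 and 0.18 in Med23+/+ and -0.25, -0.35, -0.22 and -0.13 in Med23-/-. Among 9434 genes whose mean reached 5 FPKM, the 5 closest to it by the root mean square difference were Ctps (0.0414), Nop2 (0.0601), Nop56 (0.0602), Mrpl19 (0.0611) and Hspa8 (0.0625). Ctps encodes CTP synthase, Nop2 and Nop56 nucleolar proteins of ribosome assembly, Mrpl19 a protein of the mitochondrial ribosome and Hspa8 a cytosolic chaperone. Of the 8 genes themselves, Dhcr7 ranked 22 in closeness to their mean (0.0797) and Cyp51 ranked 36 (0.0872), while Ebp ranked 3029 (0.230) and Msmo1 ranked 3268 (0.237). The measure includes the difference between genotypes, so genes with a like difference come first.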

How the data were processed

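RNA-seq libraries of 4 Med23+/+ and 4 Med23-/- iOL samples were used, grouped by the titles of the samples, and 0 library columns were left out. The authors trimmed reads with Cutadapt after FastQC, aligned them to mm10 with TopHat2 and ran cuffdiff with -b and -u (versions and annotation are not given in the sources used here). The authors deposited FPKM values per library and per genotype, without counts, for genes listed by symbol. Their log2 fold change, p-value and q-value columns hold the cuffdiff comparison and were not used. Without counts the depth is unknown, and the relative worth of 1 read came from the steps between values below 0.3 FPKM.

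FPKM values were used as log2(FPKM + 1). The 12328 genes whose mean reached 1 FPKM were tested with limma 3.58.1 in R 4.3.3 (lmFit and eBayes with a trend, no block), with Benjamini-Hochberg adjustment over all of them. Genes were called at an adjusted p under 0.05, alone or with a fold change above 2. A fold on this scale understates the change of low genes. Two-sided exact permutation tests were run for single genes, for ratios of 2 genes within a library and for neighbours in the order of levels (Python 3.11.15, scipy 1.17.1). The limma step was tested on simulated data. Coordinates came from GENCODE vM21 and promoters from RefSeq. Protein sequences were not used here.

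The 8 genes and the lists were chosen with earlier results of these data known. Named were the 8 genes, Med23, all genes of the later steps and of the electron donors, the lowest and highest gene of the other lists, the highest marker of each cell type and the 5 genes of closest profile. A few genes that this rule takes are not reported here. Vps51 and Akap9 were named for their overlap, and Lss and Srebf1 after their values were seen. Alternatives were a pseudocount of 0.1, no filter, a minimum mean of 5 FPKM, quantile and median-ratio scaling, no trend, sample weights, a replicate block, Y-linked expression as a covariate and leaving out each library. A covariate for replicates 1 and 2 against 3 and 4 was added after seeing the data.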

Additional observations from a re-analysis of the deposited data

Results flagged for a closer look

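In Med23+/+, the level of Lbr in replicate 2 (21.5 FPKM) stood apart from the other 3 libraries (18.9, 19.0 and 19.2 FPKM), with a gap to the nearest of them of 0.885 of the range of the 4. This was 1 of 24 groups of 4 libraries examined, and chance alone marks about 1 group in 20. Without that library the difference of Lbr was 0.64 (adjusted p = 0.00171 by limma).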

How the results depend on the processing

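Of the refits of the 8 genes, 121 kept the direction and the side of the threshold, 23 kept the direction but missed adjusted p, and 0 turned. Cyp51, Nsdhl, Hsd17b7 and Dhcr7 passed throughout and Ebp in none (adjusted p from 0.0619 to 0.463). The count of lower genes among the 8 went from 7 to 4 under quantile normalization, which moved their median from -0.457 to -0.360, and to 4 to 6 when 1 library was left out, with 4 without Med23+/+ replicate 1. Msmo1 missed under quantile normalization (-0.43) and sample weights (-0.42). Sc5d missed with no filter (-0.34) and quantile normalization (-0.25). Tm7sf2 missed with no filter (-0.34), quantile normalization (-0.24) and the Y-linked covariate (-0.34). Leave-one-out values ran from -0.64 to -0.45 for Msmo1, from -0.44 to -0.28 for Sc5d and from -0.42 to -0.28 for Tm7sf2. The cause was not tested.

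Over all genes, 654 were higher by both limits at a pseudocount of 0.1 (367 as reported), and 1281 were higher by adjusted p with a minimum mean of 5 FPKM (1957 as reported), where fewer genes were tested. Of the other later steps, 1 gene was lower (2 as reported) with no filter, a minimum mean of 5 FPKM or quantile normalization, and 1 to 2 when 1 library was left out. Of the SREBP list, 1 gene was higher with no filter, and 2 were lower under quantile normalization, 3 with the Y-linked covariate and 2 to 3 when 1 library was left out (5 as reported). Of the electron donors, 1 was lower (0 as reported) under median-ratio scaling, the replicate block, the Y-linked covariate and the covariate for replicates 1 and 2 against 3 and 4, and 2 with sample weights, with 0 to 1 when 1 library was left out. Of the side reactions, 1 was higher with the replicate block and 0 to 1 when 1 library was left out (0 as reported).

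The sign turned for Apoe without Med23+/+ replicate 1, Med23-/- replicate 1 or Med23-/- replicate 2 (leave-one-out range -0.48 to 0.078), for Cyb5a under quantile normalization (0.016), and for Cyb5r1 under quantile normalization (-0.10) and without Med23+/+ replicate 4 (leave-one-out range -0.036 to 0.11). None of these was called. Same-numbered libraries of the genotypes correlated at 0.13, -0.10, -0.03 and 0.16, and 1 of 4 correlated best with its own number, so single numbers were not taken as pairs, although replicates 1 and 2 stood apart from 3 and 4 in both genotypes. With the replicate block, 7 of the 8 genes were lower. With 4 libraries a genotype, and 3 after leaving one out (smallest exact p 0.0571), tests of single genes and pairs have little room, and depth is unknown.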
